A study of Ovis aries with 36 samples.

Results

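The hypothalamus-enriched genes described here are 176 of the 26478 sheep gene IDs counted (0.665%). They were chosen by their measured level. A gene's counts were divided by the library total and given as counts per 1000000 (CPM), and the median was taken over the 12 libraries of each tissue. A member had a hypothalamus median of at least 10 CPM and at least 10 times the median of the pars tuberalis and of the pineal gland. The hypothalamus level and its ratio to the other tissues are therefore a description and carry no test. The libraries came from 12 adult rams of the Rasa Aragonesa breed, each of which gave 1 library of the hypothalamus, 1 of the pars tuberalis and 1 of the pineal gland. Rams 1 to 6 were sexually active and rams 7 to 12 were not (called inactive here), so each of the 6 groups by tissue and state held 6 libraries from 6 animals. The series asks which transcripts differ with sexual behaviour in these tissues. No treatment is named in the labels, and which part of the hypothalamus was dissected is not given in the sources used here.

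The hypothalamus is a brain region in which many small groups of neurons release peptides and hormones, among them the neurons that drive the pituitary to stimulate the testis. It also holds glia, including the oligodendrocytes that make myelin, and the lining cells of the third ventricle. The pars tuberalis is a pituitary tissue that reads the melatonin signal, and the pineal gland makes melatonin at night. Tissue was sampled in bulk, so fewer cells of a type and less RNA per cell cannot be told apart. The files give gene IDs without names, and none could be matched to a symbol, so the roles of single members, their sequences and the cell type markers of the hypothalamus were not analysed here.

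In units of 1000000 counts, hypothalamus libraries held 19.25 to 44.28, pars tuberalis libraries 22.56 to 35.44 and pineal libraries 25.24 to 72.95. The same rule gave 169 genes enriched in the pars tuberalis and 189 enriched in the pineal gland. Some libraries stood apart. In the hypothalamus library of ram 4, the pars tuberalis genes sat at a median of 18.1% of their own tissue's level, against at most 4.76% in the other 11. In the pineal library of ram 10, the hypothalamus-enriched genes sat at 11.1% of their hypothalamus median, against at most 4.41% in the other pineal libraries. The hypothalamus library of ram 10 had the most members at least 2-fold above, and the most at least 2-fold below, the median of the other 11.

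The members spanned a wide range of level in the hypothalamus. Their hypothalamus medians ran from 10.35 to 16836.7 CPM, with a median of 68.1 and quartiles of 24 and 170. Of the 176, 74 reached 100 CPM and 6 reached 1000 CPM. Their medians elsewhere were low, with a middle value over the members of 1.46 CPM in pars tuberalis libraries (highest 122) and 1.76 CPM in pineal libraries (highest 114). The pars tuberalis median was under 1 CPM for 70 members and the pineal median for 61. No member was without a count in either tissue.

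**Figure D1:**
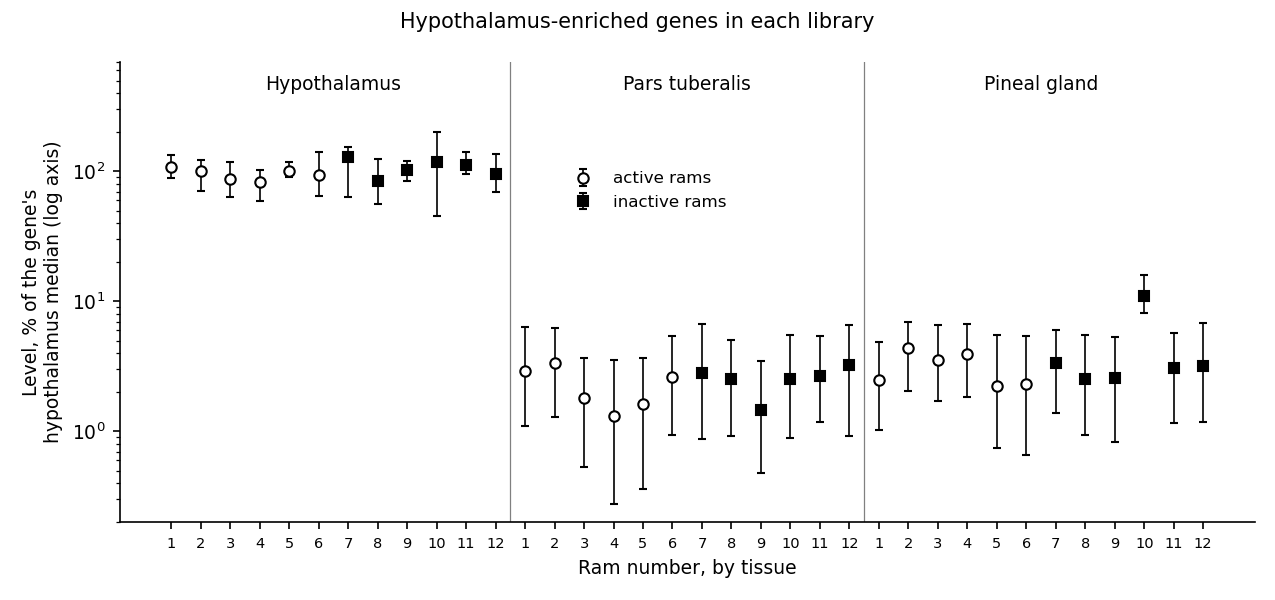
Level of the 176 hypothalamus-enriched genes in each library, as the median over members of the library's CPM in percent of the gene's hypothalamus median (log axis), by ram number and tissue, with bars for the quartiles over members, circles for active and squares for inactive rams. Hypothalamus libraries lie between 83.47 and 128.4%, pars tuberalis libraries between 1.316 and 3.378%, and pineal libraries between 2.219 and 4.41% apart from ram 10 at 11.1%.

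The members ranged from the bound of the rule to far above it. The ratio of the hypothalamus median to the higher of the other medians had a median of 19.9 (quartiles 13.4 and 40.9). It was under 20 for 89 members, from 20 to under 100 for 63 and at least 100 for 24. Just inside the bound on the ratio were ENSOARG00020007713 (10.08) and ENSOARG00020013404 (10.11). Just outside it lay ENSOARG00020017848 (10 after rounding) and ENSOARG00020011714 (9.964). At the bound on the level, ENSOARG00020004528 (10.35 CPM) and ENSOARG00020019127 (10.45 CPM) were just inside, while ENSOARG00020026165 (9.131 CPM) and ENSOARG00020007471 (9.048 CPM) were just outside.

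A single gene carried a large share of the members' counts. ENSOARG00020015153 had the highest level, at 7484 CPM in ram 8, a median of 16840 and 50350 CPM in ram 7. It made up 0.748 to 5.04% of all counts of a hypothalamus library and 24.8 to 54.9% of the members' counts. Pars tuberalis libraries held 34.83 to 90.47 CPM of it (median 51.26) and pineal libraries 45.89 to 1462 CPM (median 114), with the highest value in ram 10. The next in level was ENSOARG00020023511, at 667.4 to 5666 CPM in the hypothalamus (median 2210). Together the members held 3.02 to 9.178% of a hypothalamus library's counts (median 4.5), against 0.06809 to 0.1385% of a pars tuberalis library and 0.09141 to 0.4978% of a pineal library. All the pineal libraries other than that of ram 10 were at or below 0.1591%.

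The largest ratios belonged to genes that were almost without counts outside the hypothalamus. ENSOARG00020009581 ran from 35.92 to 1085 CPM in the hypothalamus (median 212.1), and had 2 counts in all 12 pars tuberalis libraries and 262 counts in the 12 pineal libraries. Its pooled level was 47400 times that of the pars tuberalis (95% exact interval 13100 to 391000) and 513 times that of the pineal gland (455 to 582). ENSOARG00020005236 had 31 pars tuberalis counts and 79 pineal counts, with pooled ratios of 2240 (1580 to 3300) and 1250 (1000 to 1580). These intervals cover counting error only and leave out the spread between rams. The genes were chosen for this ratio, so the intervals are no test of it. Enrichment of this size in the medians did not mean a high level in each ram: ENSOARG00020005236 had a hypothalamus median of 240.7 CPM and reached 520.9 in ram 5, but was at 0.2305 CPM in ram 2 and 3.187 in ram 12.

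The members varied more between the hypothalamus libraries than other genes of that tissue did. The SD of log2(CPM + 0.1) over the 12 libraries had a median of 0.689 over the members (quartiles 0.556 and 0.875), and of 0.354 over the 10567 genes with a hypothalamus median of at least 10 CPM. Without ram 10 the same medians were 0.635 and 0.336, and without ram 4 they were 0.703 and 0.35. The spread of 168 of the 176 members was above the median of all those genes. Every hypothalamus library lay within 2-fold of the gene's median for 39 members (22.2%) and for 7670 of all such genes (72.6%). Genes enriched in the other tissues also varied more in their own tissue than the genes around them, with a median SD of 0.467 against 0.299 for pars tuberalis genes and of 0.421 against 0.243 for pineal genes. These are descriptions over genes, which are not independent of each other.

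The most and the least variable members differed greatly. ENSOARG00020005236 had an SD of 3.28 on this scale and ENSOARG00020003058 one of 2.81. The latter was at 0.3 CPM in the hypothalamus of ram 7 and 505.9 CPM in that of ram 12, with a median of 82.18. At the other end, ENSOARG00020009712 ran from 69.27 to 121.4 CPM (median 108, SD 0.241) and ENSOARG00020024564 from 104.8 to 163.8 CPM (median 146.4, SD 0.25). For 9 members, at least 1 hypothalamus library was under 10% of the gene's hypothalamus median.

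Within single rams, enrichment held for most members but not for the same number in each. When each ram's own 3 libraries were compared, the number of members at 10 times or more of both its pars tuberalis and its pineal level ran from 93 in ram 10 to 160 in ram 5. It held in all 12 rams for 51 members, and the lowest count was 4 rams, for 5 members. For 145 members every hypothalamus library was above every library of the other tissues, and for 31 the tissues overlapped. Without the pineal library of ram 10 the counts were 153 and 23. The highest library outside the hypothalamus was that pineal library for 107 members, and the pars tuberalis library of ram 7 for 13.

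The hypothalamus library of ram 10 stood at either end of the range for many members. Ram 8 held the lowest hypothalamus value of 44 members, while the library of ram 10 held the lowest of 43 and the highest of 66. It was at least 2-fold above the median of the other 11 for 55 members (31.2%, against 4.6% of all genes at 10 CPM or more) and at least 2-fold below it for 56 (31.8%, against 9.2%). The remaining 65 were within 2-fold. These sets were drawn after seeing the data, so no test was made of them. In the library of ram 10 itself the high set stood at a median of 2.42 times the median of the other 11 and the low set at 0.282 times. Each of the other hypothalamus libraries also had a larger share of members than of all genes at least 2-fold below. The shares were 18.8% against 3.31% in ram 7, 18.2% against 1.57% in ram 8 and 16.5% against 1.52% in ram 4. At least 2-fold above, the members' share was the larger in every library but that of ram 4 (1.14% against 3%).

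The sets can be followed in the other 11 libraries, whose median is the base both of the sets and of the ratios given here. The high set stood at a median of 1.71 times in ram 7, where the low set stood at 0.472 times. In ram 8 the order was the other way round, with the high set at 0.576 times and the low set at 1.23 times. Of the 55 genes of the high set, 53 were above their median of the 11 in ram 7, 3 in ram 8 and 1 in ram 3. Of the 56 genes of the low set, 4 were above it in ram 7 and 45 in ram 8. The medians of the sets lay on opposite sides of 1 in 8 of the other 11 libraries. Of the other 3, ram 2 had both sets above it (1.09 and 1.01), ram 9 had both at it, and ram 5 had the high set at it and the low set at 1.15. Both states held libraries of either kind. In ram 4, whose hypothalamus library held more of the pars tuberalis genes, the high set was at 1.07 times and the low set at 0.584 times. The first principal component of the members' hypothalamus levels held 48.4% of their variance and the second held 19.9%, against 40.6 and 25.5% without ram 10 and 49.7 and 21% without ram 4. How the components relate to the sets was not tested. The high set had the higher hypothalamus medians, at 109 CPM against 38.4 in the low set and 85.6 in the remainder.

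**Figure D2:**
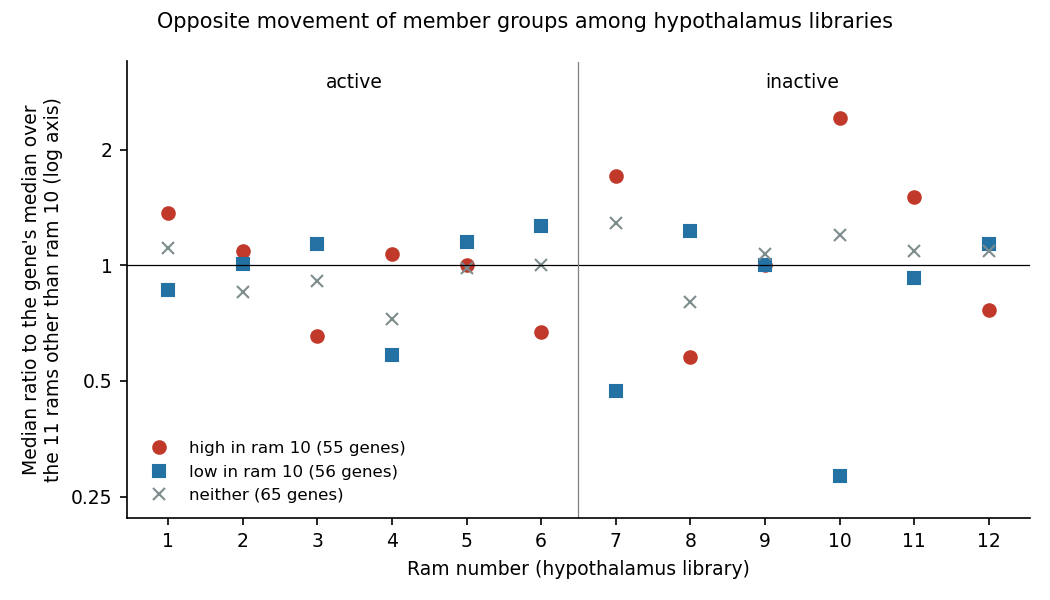
Median ratio of 3 sets of members to the gene's median over the 11 rams other than ram 10 (log axis), by ram, in the hypothalamus libraries; circles mark the 55 members at least 2-fold high in ram 10, squares the 56 at least 2-fold low and crosses the other 65. Ram 10 fixes the sets, and in ram 7 they lie at 1.71 and 0.472, while in ram 8 they lie at 0.576 and 1.23.

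Outside the hypothalamus, the members were more often higher in the pineal gland than in the pars tuberalis. The rule bounds both levels from above and does not use their order. By the quasi-likelihood test of edgeR, adjusted after Benjamini and Hochberg over the 16773 genes tested, 122 of the 176 members differed between those tissues (69.3%, against 70.5% of all genes). Of these, 99 were higher in the pineal gland (56.2%, against 36.7% of all genes) and 23 were lower (13.1%, against 33.8%). The median log2 difference, pineal gland minus pars tuberalis, was 1.01 over the members and 0.0245 over all genes. Without the pineal library of ram 10, 82 were higher (36.1% of all genes) and 37 lower (33.8% of all genes), with a median of 0.709. In that refit the set low in the hypothalamus of ram 10 had 17 higher and 18 lower, with a median of 0.0464. The high set had 28 higher and 8 lower, and the remainder 37 and 11. All 176 members passed the filter on low counts, but 10 of them did so only through the hypothalamus libraries. Over the other 166 members, 116 differed, 93 of them higher and 23 lower in the pineal gland, with a median of 0.928.

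**Figure D3:**
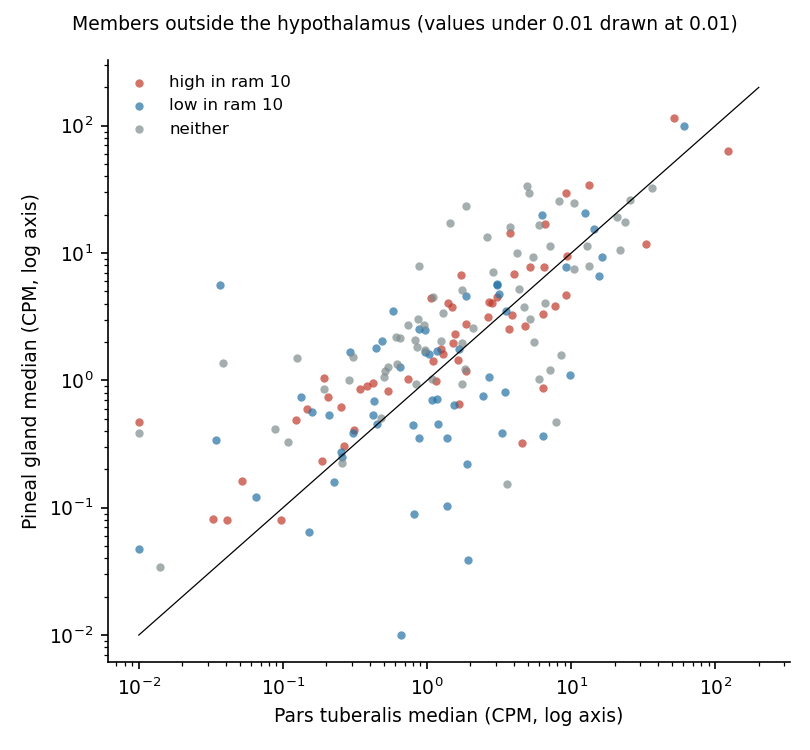
Median CPM of each member over the 12 pineal libraries against its median over the 12 pars tuberalis libraries (log axes, the lowest values drawn at the foot of the axes), with the line of equal level and the 3 sets of members in colour. The pineal median was the higher for 116 members and the pars tuberalis median for 60.

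The clearest differences in each direction were large against the spread between rams. ENSOARG00020010634 had 11.45 to 30.4 CPM in pineal libraries (median 17.24) against 0.5912 to 2.68 CPM in pars tuberalis libraries (median 1.444), so the tissues did not overlap. Its log2 difference was 3.79 (SE 0.232, edgeR adjusted p = 4.3e-16). ENSOARG00020024564, also among the steadiest members in the hypothalamus, had 5.285 to 15.12 CPM in pineal libraries against 0.1451 to 1.192 CPM in pars tuberalis libraries (log2 difference 3.61, SE 0.228, edgeR adjusted p = 9.98e-16). In the other direction, ENSOARG00020000523 had 1.129 to 15.9 CPM in pars tuberalis libraries (median 3.574) against 0.02476 to 0.3438 CPM in pineal libraries (median 0.1528). Its log2 difference was -4.79 (SE 0.501, edgeR adjusted p = 2.49e-10). ENSOARG00020017556 was likewise lower in the pineal gland, at 0.2354 to 5.769 CPM against 6.409 to 21.13 CPM (log2 difference -2.94, SE 0.348, edgeR adjusted p = 3.92e-09).

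The pineal library of ram 10 held more of nearly all members than the other pineal libraries did. For 168 of the 176 it was above the median of the other 11, at a median of 3.57 times that value, and for 129 it was the highest pineal library. By set, the median was 5.92 times for the genes high in the hypothalamus of ram 10, 2.7 times for those low there and 2.81 times for the remainder. The library was the highest pineal library for 52 of 55, 31 of 56 and 46 of 65 genes of these sets. The largest excess in CPM was that of ENSOARG00020015153, at 1462 CPM against a median of 110.7 in the other 11.

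Against the hypothalamus library of the same ram, 10 members were higher in the pineal library, 9 from the low set and 1 from the remainder. The excess over the other pineal libraries was a median of 4.44% of the ram's own hypothalamus level for the high set, 18.7% for the low set and 5.47% for the remainder. The same hypothalamus level drew the sets and divides the excess, so a higher percentage in the low set is built in and says nothing about it. The genes with the highest such percentages, named after their values were seen, were ENSOARG00020003058 and ENSOARG00020024943. ENSOARG00020003058 was at 29.57 CPM in the pineal library of ram 10 and 7.74 CPM in its hypothalamus library, but the pineal libraries of ram 4 (24.91 CPM) and ram 3 (20.65 CPM) were also high. ENSOARG00020024943 was at 10.57 CPM and 4.03 CPM in the libraries of ram 10. The genes enriched in the pineal gland were at a median of 96.5% of their usual level in that pineal library, and those enriched in the pars tuberalis at 1.96%. The source of the excess was not tested.

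**Figure D4:**
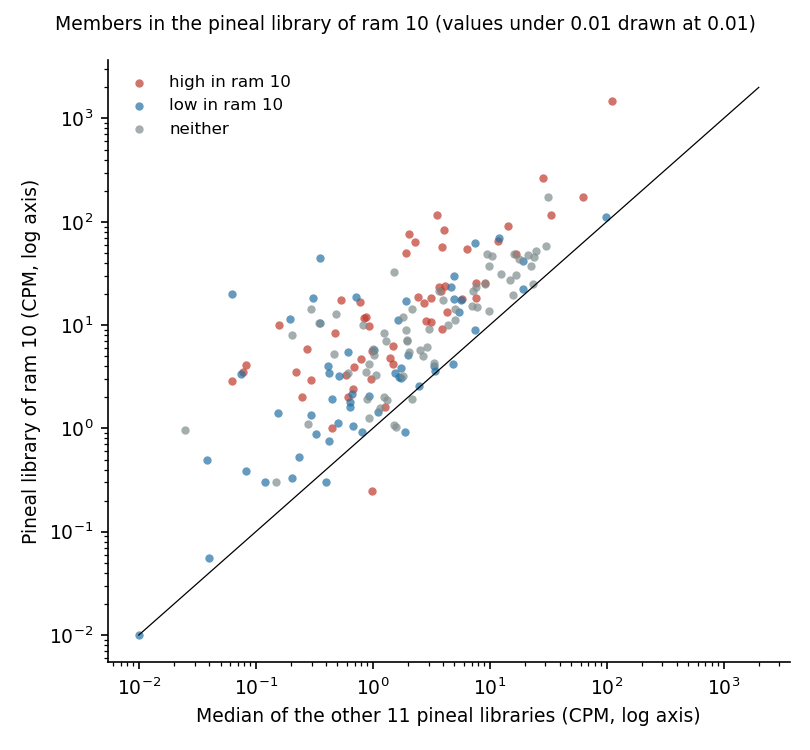
Level of each member in the pineal library of ram 10 against its median over the other 11 pineal libraries (CPM, log axes, the lowest values drawn at the foot of the axes), with the line of equal level and the 3 sets of members in colour. Points above the line are the 168 of 176 members that were higher in ram 10.

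No member was found to differ between active and inactive rams in the hypothalamus. By the same edgeR test, 0 of 176 were called (0.0954% of all genes, 16 genes). At an unadjusted p below 0.05 there were 4 members (2.27%, against 9.33% of all genes), all lower in active rams (3.59% of all genes), and DESeq2 also called 0 (0.806% of all genes), with 6 at an unadjusted p below 0.05 (8.05% of all genes). Without the pineal library of ram 10, which enters the same fit, edgeR called 0 members with 11 at an unadjusted p below 0.05 (9.32% of all genes). The median log2 difference, active minus inactive, was -0.321 over the members and 0.0135 over all genes, and 126 of the 176 were negative. It ran from -0.409 (without ram 8) to -0.184 (without ram 10) when each ram was left out in turn, and was -0.249 without the hypothalamus library of ram 4. The 95% interval of the difference lay within 2-fold for 25 of the 176 members, against 12085 of the 16773 tested genes, a much larger share. For the other members the interval reached a difference of 2-fold or more.

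The members of lowest p show how the groups overlapped. ENSOARG00020005627 ran from 62.69 to 109.9 CPM in the hypothalamus of active rams (median 97.13) and from 40.51 to 264.2 CPM in that of inactive rams (median 128.7). The inactive rams held both the lowest and the highest values, and the log2 difference was -0.77 (SE 0.291, edgeR adjusted p = 0.356). ENSOARG00020019462 ran from 79.73 to 330.6 CPM in active rams and from 232.7 to 532.9 CPM in inactive rams (log2 difference -0.71, SE 0.285, edgeR adjusted p = 0.385). The members with the lowest p in the other direction were ENSOARG00020003295 (log2 difference 0.93, SE 0.508, edgeR adjusted p = 0.615) and ENSOARG00020015008 (0.65, SE 0.366, edgeR adjusted p = 0.628). No member had hypothalamus groups that were apart, against 0.0596% of all genes, and the same held in the pars tuberalis (0.0954%) and the pineal gland (0.0417%).

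Ram 10, which fixes the sets of members, was an inactive ram. A difference by state between the high and low sets in the hypothalamus is therefore partly built in. All 55 genes of the high set had a negative difference, with a median of -0.491. The low set had 42 positive differences of 56 and a median of 0.249. The remaining 65 members had 57 negative differences and a median of -0.329, so a negative difference was not particular to the high set. Without ram 10 the high set had 49 negative differences and a median of -0.216, and the low set 32 positive ones and a median of 0.0517. The remaining 65 then had 58 negative differences and a median of -0.29.

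Outside the hypothalamus edgeR called no member by state either. In the pars tuberalis edgeR called 0 of 176 members (0% of all genes), with 12 at an unadjusted p below 0.05 (6.82%, against 3.54% of all genes). Of the 12, 8 were lower in active rams (2.5% of all genes), and DESeq2 called 0 (0.00443% of all genes), with 16 at an unadjusted p below 0.05 (3.31% of all genes). The median log2 difference was -0.112, and it turned positive without ram 4 (0.0211) or ram 7 (0.024). ENSOARG00020004225 lay between 2.266 and 7.009 CPM in the active group and between 0.9311 and 4.034 CPM in the inactive group (log2 difference 1.19, SE 0.374, edgeR adjusted p = 0.967). ENSOARG00020004770 lay between 0.9956 and 3.301 CPM in the active group and between 2.28 and 7.375 CPM in the inactive group (log2 difference -1.26, SE 0.421, edgeR adjusted p = 0.967).

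In the pineal gland edgeR called 0 of 176 members (0% of all genes), with 25 at an unadjusted p below 0.05 (14.2%, against 1.94% of all genes), of which 24 were lower in active rams (1.32% of all genes). The median log2 difference was -0.406, and 149 members were negative. This rested on the pineal library of ram 10: without it the median was 0.163, 65 members were negative and 84 had changed sign. At an unadjusted p below 0.05 there were then 21 members (1.6% of all genes), 17 of them higher in active rams. The share of all genes in that direction is not given here. Of the 21, 15 belonged to the set high in the hypothalamus of ram 10, 1 to the low set and 5 to the remainder. DESeq2 called 3 members with all libraries in (0.0886% of all genes), with 30 at an unadjusted p below 0.05 (2.07% of all genes). The 3 were ENSOARG00020025044 (adjusted p = 0.00171, range over the alternatives 0.00171 to 1), ENSOARG00020000198 (0.0145, range 0.0145 to 1) and ENSOARG00020011935 (0.0325), all lower in active rams and all highest in ram 10.

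Values of these genes show the weight of 1 library. ENSOARG00020000198 was at 0.03923 to 1.186 CPM in the pineal gland of active rams, and at 44.29 CPM in ram 10 with the other 5 inactive rams at or below 0.8172 CPM. Its log2 difference was -3.82 (SE 0.958, edgeR adjusted p = 0.475) with that library and 0.386 without it. ENSOARG00020025044 was at 0.1326 to 0.612 CPM in active rams, and at 14.45 CPM in ram 10 with the other inactive rams at or below 1.85 CPM. Its log2 difference was -3.63 (SE 0.783, edgeR adjusted p = 0.475), and -1.87 without the library. In the other direction ENSOARG00020005799 lay between 0.1486 and 2.917 CPM in the active group and between 0.2081 and 1.137 CPM in the inactive group (log2 difference 1.33, SE 0.595, edgeR adjusted p = 1).

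**Figure D5:**
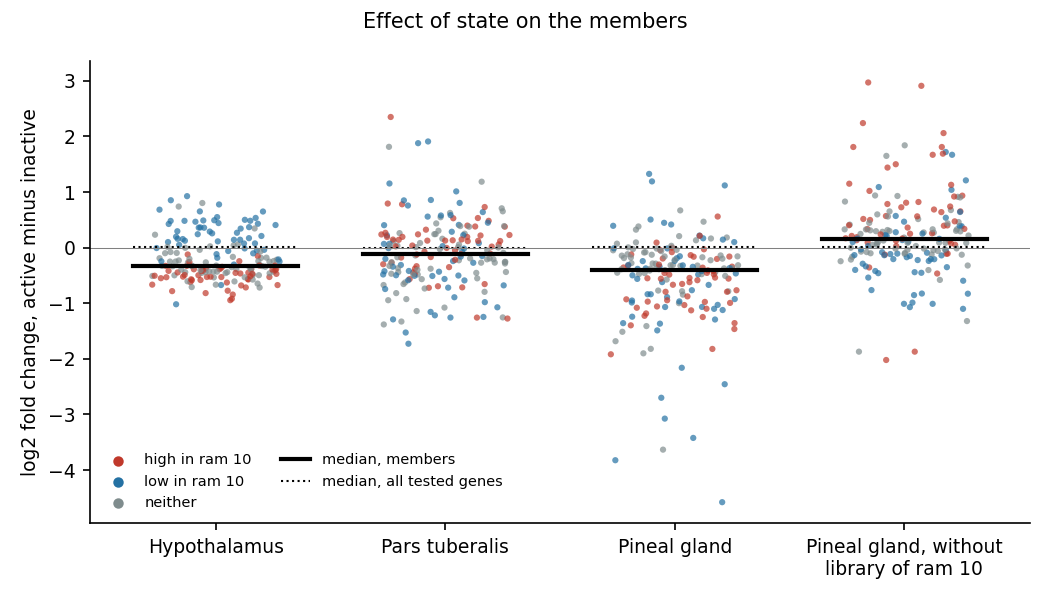
Log2 difference between active and inactive rams (active minus inactive) for the 176 members in each tissue, coloured by set, with the pineal gland also shown without the library of ram 10; thick lines are medians over members and dotted lines medians over all tested genes. The median over members is -0.321 for hypothalamus, -0.112 for pars tuberalis and -0.406 for pineal libraries, and 0.163 for pineal libraries without that of ram 10.

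Whether the difference by state was equal in the 3 tissues was asked in a test on 2 degrees of freedom. By edgeR, 0 of 176 members were called (0% of all genes), with 14 at an unadjusted p below 0.05 (7.95%, against 3.24% of all genes). DESeq2 also called 0 (0.00443% of all genes), with 17 at an unadjusted p below 0.05 (3.24% of all genes). Without the pineal library of ram 10, edgeR called 0, with 25 at an unadjusted p below 0.05. The share of all genes in that refit is not given here, so the 25 cannot be read as an excess. The members with the lowest p were ENSOARG00020025044 (edgeR adjusted p = 0.679) and ENSOARG00020022608 (edgeR adjusted p = 0.885), and both were highest in ram 10 among the pineal libraries.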

How the data were processed

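Messenger RNA of 36 libraries was measured. Per the labels' protocols, stranded libraries with molecular identifiers were made from frozen tissue, using an RNA kit meant for lipid tissue, and both ends were read for 151 bases. The tools named in the submitters' processing notes are STAR 2.7.8a, HTSeq, edgeR and FastQC. Not given in the sources used here are the genome build, annotation, strand setting and any collapsing by identifier, so overlapping or near-identical genes are uncertain. The authors deposited raw counts per gene, not normalised. The reference table gave symbols for 0 IDs, so the planned symbol lists were not used.

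Levels are raw CPM. Tests used R 4.3.3 and edgeR 4.0.16: edgeR's filter (minimum count 10), scaling by trimmed mean of M values, and 1 robust quasi-likelihood fit of 36 libraries with 6 group means and 30 residual degrees of freedom. Calls were made at a Benjamini-Hochberg adjusted p below 0.05. Scripts were tested on simulated data. Alternatives were DESeq2 1.42.0, other scaling, no filter, each tissue alone, libraries left out and an animal block. Because IDs have no names, at most 2 IDs per direction and comparison are named, by lowest p, level, ratio or spread. The members and lists were chosen with earlier results of these data known.

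Tissues are paired by the animal number, which per the labels the 3 libraries of a ram share. Deviations from the group mean correlated within animals at a median of 0.095 (hypothalamus and pars tuberalis), 0.2 (hypothalamus and pineal gland) and 0.22 (pars tuberalis and pineal gland) over 16773 genes. Over the members the medians were lower, at 0.067, 0.09 and 0.049 in the same order. Chi-square per degree of freedom was at least 35.7 in the 90 within-group pairs of libraries, so none was a copy of another in its group.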

Additional observations from a re-analysis of the deposited data

Results flagged for a closer look

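Of 40 groups of 6 libraries checked, 10 held a library that stood far from the other 5, and chance gives about 1 such group in 20. That rate does not hold for the named genes, which were picked for a low p, a wide spread or a high value in ram 10. Ram 10 was that library in 6 of them, all in the pineal gland of inactive rams. The members' median level there was 11.1% of the hypothalamus median, with the next library at 3.334%, and their share of counts was 0.4978%, with the next at 0.1205%. ENSOARG00020000198 was at 44.29 CPM in that library (next 0.8172), ENSOARG00020003058 at 29.57 (next 9.665), ENSOARG00020025044 at 14.45 (next 1.85) and ENSOARG00020024943 at 10.57 (next 0.902).

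In the pineal gland of active rams, ENSOARG00020025044 was at 0.612 CPM in ram 2, with the next at 0.2971. In the hypothalamus of active rams, the members' share of counts was 5.597% in ram 1, with the next at 4.559%. ENSOARG00020015008 was at 46.32 CPM in ram 2 (next 21.06), and ENSOARG00020019462 was low in ram 6, at 79.73 CPM with the next at 239.2.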

How the results depend on the processing

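The number of members followed the bound on the ratio, with 87 at 20 times the other medians and 324 at 5 times, and ran from 169 to 184 when each ram was left out. The state counts stayed at 0 under every alternative run in the hypothalamus and pars tuberalis. In the pineal gland they stayed at 0 except for the 3 members called by DESeq2. ENSOARG00020000198 changed direction by state in the pineal gland without the library of ram 10, to a log2 difference of 0.386, and ran from -4.15 to 0.386 over the rams left out. The number of members that differed between pineal gland and pars tuberalis ran from 114 to 123 over the rams left out. With the animal as a block it was 125, of which 116 were among the 122, and the interaction called 0. The block changed no call of a named gene, and the state comparisons within a tissue set different animals against each other and could not take it. At a bound of 3 times, the sets high and low in ram 10 held 6 and 36 members. Depth limits low members most: the pars tuberalis median was under 1 CPM for 70 members and the pineal median for 61.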
